A study of Mus musculus with 18 samples.

Results

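Cholesterol and fatty acids are made from the same cytosolic pool of acetyl-CoA, and most genes of both pathways are transcribed under SREBPs, factors that are held in the endoplasmic reticulum and released when membrane sterols run low. SREBP2, the product of Srebf2, mainly drives cholesterol synthesis, and SREBP1, the product of Srebf1, mainly drives fatty acid synthesis. Retinoic acid works through its nuclear receptors, the RARs, whose partner RXR is also the partner of LXR, the oxysterol receptor that raises Srebf1 and sterol efflux. Levels of 33 genes of these pathways were described here in mIMCD-3 cells, a mouse line of the inner medullary collecting duct. They are 20 genes of the sterol branch and 13 of the fatty acid branch, taken by gene symbol from the known pathways. The choice was made with earlier results of these data known. All 33 had a transcript cluster, the array's unit for a gene, among the 23410 clusters for which the platform annotation gives a symbol.

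RNA had been hybridized to 18 Affymetrix Mouse Gene 1.0 ST arrays in 2 experiments, and each experiment had 3 groups of 3 biological replicates, from independent experiments, treated for 24 h in medium with 1% fetal calf serum. In the first, cells received vehicle (ethanol and DMSO, each at 0.1%), 1 µM AGN193109, an antagonist of all RARs, or 1 µM AGN193109 with 0.2 µM tRA, all-trans retinoic acid. In the second, cells received the same vehicle, 25 µM DEAB, which inhibits the enzymes that make tRA, or 25 µM DEAB with 0.01 µM tRA. No group received tRA alone, and all cultures were of the 1 cell line. The question was whether blocking endogenous retinoid signaling, and giving tRA back, changed the synthesis genes.

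Levels are log2 signals made by the Robust Multichip Average, so a difference of 1 is a 2-fold difference. A level belongs to its own probes and was not compared between genes or between the experiments, whose array medians over all 35556 clusters of the array were 7.23 to 7.33 and 7.48 to 7.51. Clusters with a symbol had higher medians in vehicle, 7.90 and 8.18, and markers were set against these. Of 12 markers of principal cells and epithelium, 5 (Cdh1, Epcam, Krt8, Krt18 and Krt19) lay above the median of the clusters with a symbol in both vehicle groups. Aqp2, the water channel that defines principal cells, lay just below it (7.79 and 8.01), as did, further down, Aqp3, Avpr2, Scnn1a, Scnn1b, Scnn1g and Gata3. The paper reported AQP2 protein in these cells by immunostaining. A place below the median is a rank among different probes and does not show that a gene is absent. None of 5 intercalated cell markers or 6 markers of proximal tubule and loop, and 1 of 11 stromal, endothelial and immune markers (Col1a1), lay above it. Of these 34 markers, 1 was called in a comparison of groups, Atp6v0a4. It fell by 0.57 (SE 0.04, adjusted p 0.00123) on adding tRA to DEAB, where 0.325% of all clusters were called. The paper lists Atp6v0a4, in an entry shared with another gene, among the candidate retinoid targets that both inhibitors raised. In cultures measured in bulk, fewer cells of a type and less RNA per cell cannot be told apart.

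Promoter sequences are shown for 4 members that are described further on. Each is the 250 bases before a RefSeq transcript start in GRCm38.p6, written along the gene's own strand. For Fasn the RefSeq gene begins further upstream (chr11:120825166), so its window lies within the gene. For Lss it begins inside the window (chr10:76531565). Capitals mark CCAAT or its complement ATTGG, the site of NF-Y, a factor that acts beside SREBPs at sterol genes, and TCACNCCAC, a form of the sterol regulatory element. Hmgcs1 (chr13:119690101-119690350, plus strand) begins the mevalonate pathway, and its window holds the only TCACNCCAC among the 26 members with a window. Mvd (chr8:122443423-122443672, minus strand) and Lss (chr10:76531355-76531604, plus strand) had the smallest adjusted p of any member when replicate numbers were compared, in the DEAB and the AGN193109 experiment respectively. Fasn (chr11:120824548-120824797, minus strand) is the fatty acid synthase, and 2 of its 3 CCAAT matches overlap in opposite directions.
Hmgcs1: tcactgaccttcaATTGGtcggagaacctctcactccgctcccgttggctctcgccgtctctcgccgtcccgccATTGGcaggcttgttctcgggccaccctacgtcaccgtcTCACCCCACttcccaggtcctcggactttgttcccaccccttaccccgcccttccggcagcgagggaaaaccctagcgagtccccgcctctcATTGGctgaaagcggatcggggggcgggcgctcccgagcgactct
Mvd: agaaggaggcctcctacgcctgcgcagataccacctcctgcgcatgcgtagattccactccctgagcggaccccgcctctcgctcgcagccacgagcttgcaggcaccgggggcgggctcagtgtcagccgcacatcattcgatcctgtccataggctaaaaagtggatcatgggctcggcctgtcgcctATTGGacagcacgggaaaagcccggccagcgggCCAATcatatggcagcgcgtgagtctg
Lss: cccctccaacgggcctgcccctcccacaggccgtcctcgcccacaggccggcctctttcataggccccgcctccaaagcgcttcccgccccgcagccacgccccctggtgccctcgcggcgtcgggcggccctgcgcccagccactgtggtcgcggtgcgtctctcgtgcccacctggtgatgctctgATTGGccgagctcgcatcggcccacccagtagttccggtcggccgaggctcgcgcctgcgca
Fasn: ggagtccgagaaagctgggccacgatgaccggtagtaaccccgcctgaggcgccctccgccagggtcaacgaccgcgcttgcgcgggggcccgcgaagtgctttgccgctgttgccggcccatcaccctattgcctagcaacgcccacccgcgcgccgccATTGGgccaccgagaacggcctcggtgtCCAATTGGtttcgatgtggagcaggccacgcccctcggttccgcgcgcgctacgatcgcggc

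RefSeq windows from 250 bases before to 50 after the start were on hand for 26 of the 33 members, 16 of the sterol branch and 10 of the fatty acid branch. CCAAT, read on both strands, was in a window of all 16 sterol members and of 6 of 10 fatty acid members (Srebf1, Fasn, Acacb, Acly, Acss2 and Me1), against 41.1% of all 27025 genes with a window. Of all 32851 windows 37.4% held it. The palindrome CACGTG, a site that SREBP1 can also bind, was in 4 sterol members (Dhcr7, Sc5d, Hsd17b7 and Insig1), in none of the 10 fatty acid members and in 8.09% of all genes and 7.15% of all windows. TCACNCCAC was in 1.44% of all genes and 1.24% of all windows. No member's window held the retinoic acid response element searched, a direct repeat with 5 bases between the repeated motifs, which was in 0.115% of all genes and 0.0974% of all windows. Pmvk, Dhcr7, Srebf1 and Me1 had several windows each and so more chances of a match. A match describes the letters of the window and is not evidence of binding.

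The vehicle cultures gave the starting levels. In the mevalonate part of the sterol branch, Hmgcs1, which condenses acetyl-CoA to HMG-CoA, had 11.73 ± 0.14 (SD, n = 3), and 11.83 ± 0.17 in the experiment with DEAB, and each pair of values below is in this order. Mevalonate is then phosphorylated by Mvk (10.41 ± 0.21 and 10.84 ± 0.15) and Pmvk (9.28 ± 0.26 and 9.32 ± 0.14). Mvd, which decarboxylates the product to isopentenyl diphosphate, had 10.79 ± 0.17 and 10.49 ± 0.19, and Idi1, its isomerase, had 11.39 ± 0.14 and 11.47 ± 0.33. Chains are built by Fdps (12.44 ± 0.06 and 12.83 ± 0.13) and joined to squalene by Fdft1 (12.70 ± 0.04 and 12.85 ± 0.10). Sqle, the squalene epoxidase and a rate-limiting step, had 11.85 ± 0.20 and 12.17 ± 0.12, and Lss, which closes the ring system to lanosterol, had 11.85 ± 0.22 and 12.11 ± 0.22.

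Lanosterol is trimmed and reduced to cholesterol by the next enzymes. The demethylations need Cyp51 (11.22 ± 0.09 and 11.79 ± 0.15), Tm7sf2, a sterol reductase (9.77 ± 0.10 and 9.90 ± 0.11), Msmo1, the methylsterol oxidase (12.22 ± 0.04 and 12.20 ± 0.21), Nsdhl (11.52 ± 0.13 and 11.55 ± 0.18) and Hsd17b7 (11.03 ± 0.10 and 11.31 ± 0.25). Ebp, a sterol isomerase, had 9.48 ± 0.12 and 10.33 ± 0.02, Sc5d, a desaturase, had 10.88 ± 0.02 and 11.26 ± 0.09, and Dhcr7, a late reductase, had 10.54 ± 0.06 and 10.82 ± 0.10. Among the regulators, Insig1, which holds SREBPs back when sterols are plentiful and is itself an SREBP target, had 12.59 ± 0.11 and 12.61 ± 0.15, and Srebf2 had 11.93 ± 0.13 and 12.24 ± 0.07. Stard4, a cytosolic sterol carrier, had 10.04 ± 0.19 and 10.35 ± 0.06.

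In the fatty acid branch, Srebf1 had 10.50 ± 0.11 in the vehicle of the AGN193109 experiment and 11.02 ± 0.13 in that of the DEAB experiment. Acetyl-CoA is supplied by Acly from citrate (11.75 ± 0.14 and 11.81 ± 0.12) and by Acss2 from acetate (8.84 ± 0.32 and 8.59 ± 0.10), and NADPH by Me1, malic enzyme (11.42 ± 0.09 and 11.84 ± 0.04). The carboxylases are Acaca, of the cytosol (11.15 ± 0.07 and 11.35 ± 0.19), and Acacb, at the mitochondrion (8.07 ± 0.12 and 8.13 ± 0.06). Fasn, which builds palmitate, had 12.65 ± 0.08 and 12.90 ± 0.19, and Elovl6, which lengthens it, had 11.82 ± 0.09 and 12.55 ± 0.12. The desaturases Scd1 (12.73 ± 0.06 and 12.80 ± 0.18) and Scd2 (13.78 ± 0.05 and 14.26 ± 0.04) make monounsaturated chains. Fads1 (13.23 ± 0.04 and 13.41 ± 0.03) and Fads2 (13.31 ± 0.01 and 13.47 ± 0.03) desaturate polyunsaturated ones. Lpin1, a phosphatidate phosphatase on the way to triglyceride, had 10.14 ± 0.14 and 10.12 ± 0.28. Over both vehicle groups the SD ran from 0.01 for Fads2 to 0.33 for Idi1.

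With AGN193109 alone no member passed the test. Sterol members had a median difference from vehicle of -0.07, and 17 of 20 means were below vehicle, from -0.26 (Pmvk, SE 0.15) to 0.07 (Cyp51, SE 0.16). Fatty acid members had a median of -0.03 with 8 of 13 means below. Over all clusters the median was 0.02 and 43.2% of means were below. In limma with the Benjamini-Hochberg adjustment over all 23410 clusters, 0 of 33 members passed an adjusted p of 0.05, against a background of 0.0683% of clusters called, and 0 had an unadjusted p under 0.05 (background 3.3%). With the replicate block described next, 3 did, all below vehicle (Pmvk, Mvd and Acaca; background 6.99% in either direction). Replicate number as a block, which compares cultures of the same number, raised the calls over all clusters to 0.457% and still called 0 of 33, with a smallest adjusted p of 0.422. In the fit without the block, 95% confidence intervals of sterol members reached at most 1.56-fold lower and 1.39-fold higher, and those of fatty acid members 1.48-fold lower and 1.26-fold higher. By replicate number, 7 sterol and 4 fatty acid members were below vehicle in all 3 pairs (background 9.09%).

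Acaca was the 1 member of 33 whose AGN193109 arrays all lay below the vehicle arrays, where 2.36% of all clusters did, so the count is near the background. It read 11.22, 11.10 and 11.12 in vehicle, 11.01, 10.75 and 11.04 with AGN193109, and 11.38, 11.12 and 11.30 with tRA added. The AGN193109 arrays were thus the lowest 3 of the 9, and vehicle and AGN193109 with tRA overlapped. The difference was -0.22 (SE 0.10, adjusted p 1) with AGN193109 and 0.34 (SE 0.10, unadjusted p 0.00818, adjusted p 1) on adding tRA. A dimmer cluster of Acaca gave -0.16 and 0.35. With the block, the adjusted p was 0.51 and 0.337. In the DEAB experiment Acaca differed from vehicle by 0.05 (SE 0.11) with DEAB and from DEAB by 0.03 (SE 0.11) on adding tRA.

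Adding 0.2 µM tRA to AGN193109 left all 20 sterol means below those of AGN193109 alone, with a median of -0.15, where 55.8% of all clusters were below and their median was -0.01. The differences ran from -0.28 (Lss, SE 0.15) to -0.02 (Ebp, SE 0.11, and Stard4, SE 0.25). The fatty acid branch had a median of 0, with 7 of 13 means below. No member of either branch was called (0.0214% of all clusters were), and with the block 0 of 33 were called at a background of 0.0812%. The smallest adjusted p with the block was 0.391 for Lss and 0.337 for Acaca. At an unadjusted p under 0.05 there were 0 sterol members and 2 fatty acid members, Acaca above and Acacb, at -0.25 (SE 0.11), against 2.14% of all clusters. With the block there were 4 sterol members, all lower (Mvk, Lss, Nsdhl and Hsd17b7), and 3 fatty acid members, Acacb lower and Acaca and Srebf1 higher, against 5.2% of all clusters. Of the sterol members 11 were below AGN193109 in all 3 replicate numbers, and 1 fatty acid member was (background 13.7%).

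**Figure D1:**
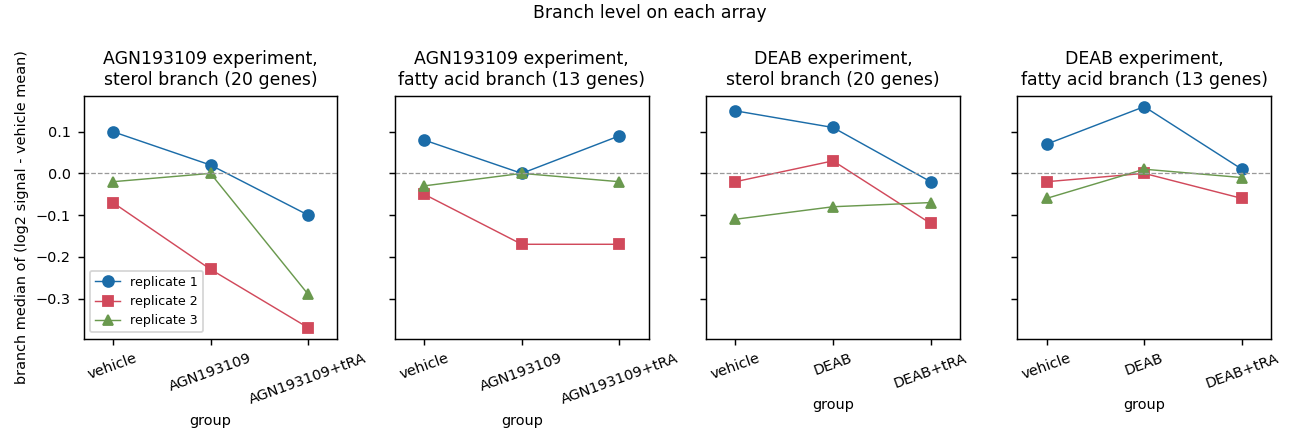
Branch level on each array: the y axis is the median, over the genes of a branch, of a gene's log2 signal minus its vehicle mean, the x axis is the group, and each line joins the arrays of 1 replicate number. Sterol medians with AGN193109 and tRA were -0.10, -0.37 and -0.29, and replicate 1 was highest in each panel's vehicle.

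AGN193109 with tRA differed most from vehicle in the sterol branch. All 20 sterol means were below vehicle, with a median of -0.22, against 49% of all clusters and a median of 0. By replicate number the median of the 20 was -0.23, -0.27 and -0.28, and 14 of 20 genes were below vehicle in all 3 numbers, where 12.9% of all clusters were. The 6 exceptions (Idi1, Cyp51, Sc5d, Ebp, Msmo1 and Stard4) were above vehicle in replicate 1, and Ebp also in replicate 3. In 7 sterol genes (Mvk, Fdps, Fdft1, Dhcr7, Hsd17b7, Tm7sf2 and Insig1) every array lay below every vehicle array, at a background of 2.43%. The fatty acid branch had a median of -0.04, with 7 of 13 means below and 4 of 13 genes below in all 3 numbers, and the difference between the branches was not tested. Outside the members, 10 other sterol synthesis and uptake genes, described further on, had a median of -0.06, with 8 of 10 means below vehicle. The groups of this comparison share their arrays with the 2 comparisons before it, so the 3 are not independent. Sterol members also varied together over the arrays of this experiment (median r 0.79, described further on). Counts of members, here and in the other comparisons, are therefore not counts of independent genes, and the shares of all clusters are given only as a background.

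Of single genes, Insig1 had the largest mean difference. It read 12.66, 12.65 and 12.46 in vehicle, 12.40, 12.15 and 12.51 with AGN193109, and 12.39, 12.05 and 12.11 with tRA added. All 3 arrays with tRA lay below the vehicle arrays, and AGN193109 alone overlapped vehicle. The difference was -0.41 (SE 0.12, 95% confidence interval -0.68 to -0.13, unadjusted p 0.00792, adjusted p 1 in limma). Mvd read 10.95, 10.61 and 10.82 in vehicle, 10.68, 10.33 and 10.64 with AGN193109, and 10.61, 10.29 and 10.33 with tRA added. Vehicle and tRA arrays touched at 10.61, while within each number tRA was below by 0.32 to 0.49. The difference was -0.38 (SE 0.13), with an adjusted p of 1 and of 0.29 with the block.

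Lss read 12.11, 11.70 and 11.75 in vehicle, 12.03, 11.59 and 11.77 with AGN193109, and 11.74, 11.37 and 11.44 with tRA added. Replicate 1 was the highest in each group, and replicate 1 with tRA overlapped vehicle replicates 2 and 3. Within each number the value with tRA was below vehicle by 0.31 to 0.38, the mean difference was -0.34 (SE 0.15, adjusted p 1), and with the block the adjusted p was 0.29. In Nsdhl, a sterol dehydrogenase, replicate 1 was the lowest of the arrays with tRA. It read 11.61, 11.38 and 11.59 in vehicle and 10.94, 11.21 and 11.38 with tRA, and the difference was -0.35 (SE 0.12, adjusted p 1). Of the fatty acid genes, Acss2 read 9.20, 8.59 and 8.74 in vehicle and 8.49, 8.45 and 8.43 with tRA, and Lpin1 10.30, 10.08 and 10.05 and 10.02, 9.81 and 9.88. These were the only fatty acid members whose 3 arrays with tRA lay below all vehicle arrays, with differences of -0.39 (SE 0.18) and -0.24 (SE 0.12) and adjusted p of 1.

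No cluster of the 23410 was called in this comparison (0%), so 0 of 33 members were. With the block, 1 cluster was called (0.00427%), and it was no member. At an unadjusted p under 0.05, 8 of 20 sterol members passed (Mvk, Pmvk, Mvd, Dhcr7, Nsdhl, Hsd17b7, Insig1 and Lss), all below vehicle, and 0 of 13 fatty acid members, against 1.79% of all clusters. With the block, 12 sterol members passed on the low side, and so did 4 fatty acid members (Acacb, Acly, Acss2 and Lpin1), against 3.06% of all clusters. The intervals without the block reached at most 1.71-fold lower and 1.38-fold higher for sterol members. Without replicate 1 of AGN193109 with tRA the sterol median was -0.32, and without its replicate 2 it was -0.15.

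DEAB alone gave sterol differences close to 0. The sterol median was 0.03, with 14 of 20 means above vehicle and a range of -0.06 (Cyp51, SE 0.10) to 0.13 (Pmvk, SE 0.10). All 13 fatty acid means were above or at vehicle, with a median of 0.05 and a highest value of 0.14 (Srebf1, SE 0.09), and over all clusters 50.1% of means were below. No member was called (background 0.0342%, and 0.303% with the block, where the smallest adjusted p was 0.631), and 0 of 33 had an unadjusted p under 0.05 (background 4.05%) or had one with the block (7.99%). No member was below vehicle in all 3 replicate numbers (background 13.9%), while 7 sterol and 4 fatty acid members were above in all 3 (background 11.3%). Intervals of sterol members reached at most 1.37-fold lower and 1.34-fold higher, narrower than with AGN193109.

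Acacb was the 1 member of 33 whose DEAB arrays all lay above vehicle, where 3.27% of all clusters did, which is near the background. It read 8.16, 8.16 and 8.07 in vehicle, 8.22, 8.20 and 8.30 with DEAB, and 8.11, 8.08 and 8.16 with 0.01 µM tRA added. The DEAB arrays were the highest 3 of the 9. The difference was 0.11 (SE 0.05, adjusted p 1) with DEAB and -0.12 (SE 0.05, unadjusted p 0.0351, adjusted p 0.752) on adding tRA.

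Adding 0.01 µM tRA to DEAB gave means below DEAB in 19 of 20 sterol members (all but Dhcr7, 0.06, SE 0.07) and in 12 of 13 fatty acid members (all but Acaca). The medians were -0.08 and -0.07, where 46.6% of all clusters were below and their median was 0.01. No member was called (0.325% of clusters were), nor with the block (1.5%). At an unadjusted p under 0.05 there were 1 sterol member, Stard4, and 1 fatty acid member, Acacb, against 6.39% of all clusters. With the block there were 6 sterol members (Hmgcs1, Pmvk, Fdps, Lss, Tm7sf2 and Stard4) and 4 fatty acid members (Srebf1, Acacb, Scd1 and Elovl6), all lower, against 11.8% of all clusters in either direction. In all 3 replicate numbers 8 sterol and 8 fatty acid members were below DEAB (background 16.2%). The sterol median was -0.13, -0.13 and 0.03 by number, so replicate 3 did not share the direction, and the fatty acid median was -0.07, -0.10 and -0.06.

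Scd1, a stearoyl-CoA desaturase gene, had the smallest adjusted p of any member with the block, and it missed the threshold. It read 12.96, 12.61 and 12.84 in vehicle, 13.03, 12.81 and 12.92 with DEAB, and 12.75, 12.53 and 12.82 with tRA added. The 3 groups overlapped, and within each number DEAB was the highest. The difference on adding tRA was -0.22 (SE 0.11, adjusted p 0.816), with an adjusted p of 0.135 with the block. Stard4 read 10.34, 10.47 and 10.44 with DEAB and 10.21, 10.22 and 10.34 with tRA added, meeting at 10.34. Its difference was -0.16 (SE 0.06, adjusted p 0.686, and 0.187 with the block). Srebf1 read 11.04, 11.13 and 11.32 with DEAB and 10.90, 10.99 and 11.05 with tRA added, a difference of -0.18 (SE 0.09, adjusted p 0.818, and 0.29 with the block).

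Differences of DEAB with tRA from vehicle were small. The sterol median was -0.07 with 18 of 20 means below (all but Mvd and Dhcr7), and the fatty acid median -0.03 with 10 of 13 below. Of all clusters 49% were below. No cluster was called (0%), with the block 0.0214% were and no member was among them. At an unadjusted p under 0.05 there were 0 of 33 members, against 5.99% of all clusters, and with the block 1, Tm7sf2, against 11.1%. Below vehicle in all 3 numbers were 5 sterol and 3 fatty acid members (background 14.6%). The tRA doses of the 2 experiments differed, so the sterol medians of -0.22 and -0.07 against vehicle are given side by side without a test.

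**Figure D2:**
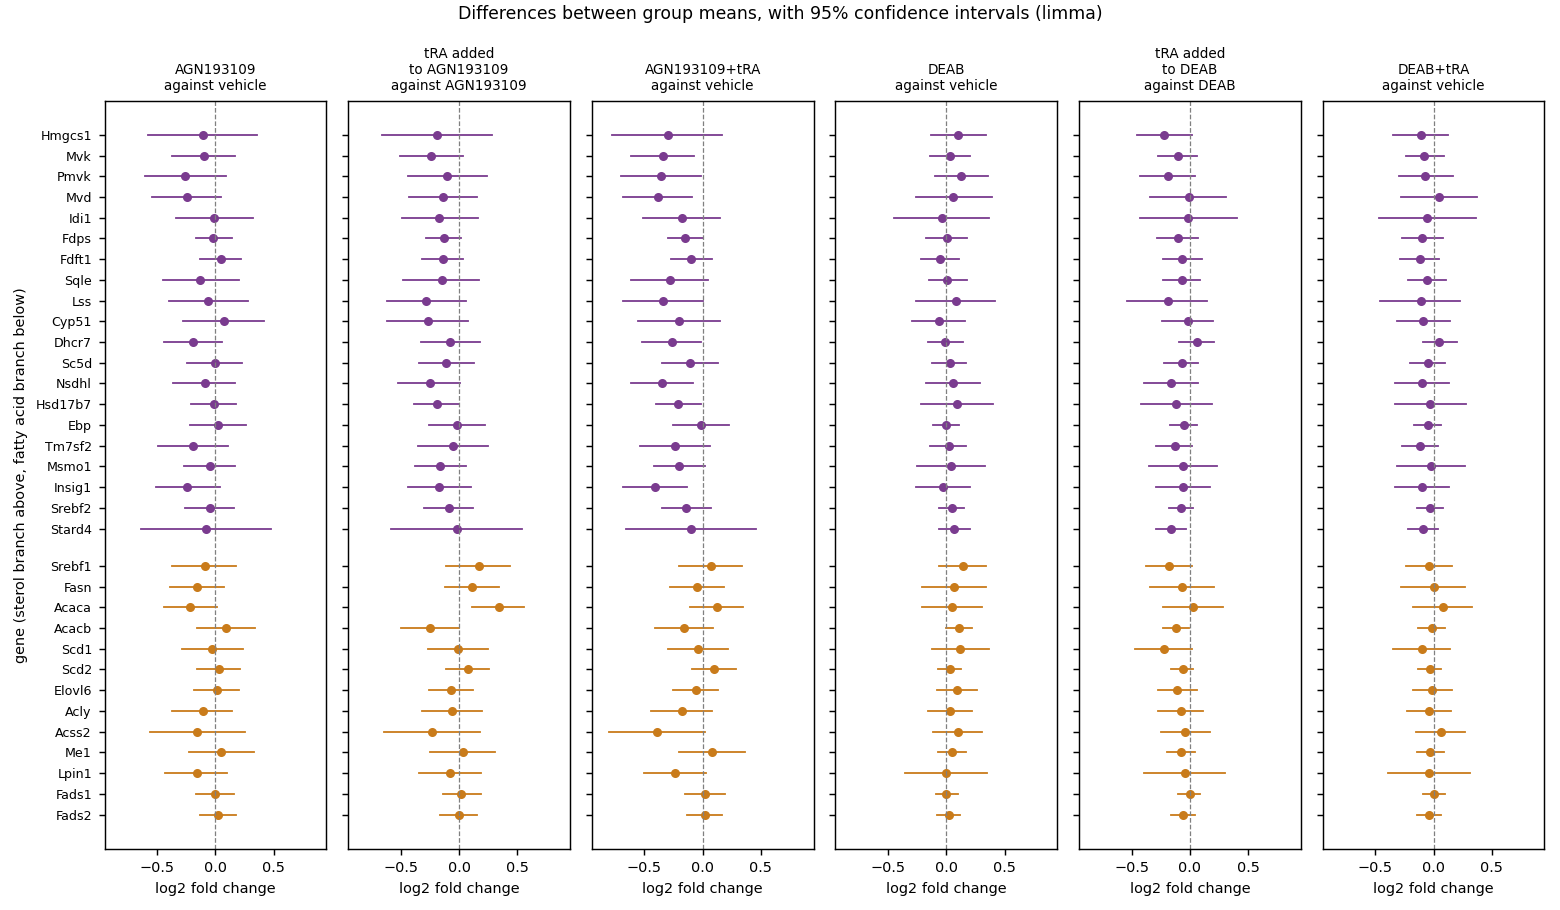
Log2 fold changes of the 33 members in the 6 comparisons: points are differences between group means (3 arrays each), lines are 95% confidence intervals from limma, with sterol members in purple and fatty acid members in orange. In the third panel all 20 sterol points lie left of 0, from -0.41 to -0.01, and the fatty acid points lie on both sides.

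The effects of the 2 inhibitors were set against each other directly, as the difference of AGN193109 against vehicle and DEAB against vehicle over the 18 arrays. The median of this difference was -0.13 for the sterol branch and -0.15 for the fatty acid branch, and 0.01 over all clusters. It was largest for Pmvk (-0.39, SE 0.19) and Mvd (-0.31, SE 0.20). No member was called, nor was any cluster (0%), and with the block the share was 0.00427% and the members' smallest adjusted p was 0.618. At an unadjusted p under 0.05 there were 0 members, against 2.3% of all clusters. With the block there were 3 sterol members (Pmvk, Mvd and Tm7sf2) and 3 fatty acid members (Srebf1, Fasn and Acaca), all lower, against 5.57% of all clusters in either direction. The inhibitors were each run in their own experiment, so the compound and the experiment cannot be told apart in this difference.

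For scale, the genes used to check the treatments differed by several log2 units. Ppbp, a chemokine, fell by 3.25 (SE 0.21, adjusted p 0.00119) with AGN193109 and fell by 2.62 (SE 0.22, adjusted p 0.00425) with DEAB, and rose by 2.63 (adjusted p 0.00805) and 3.51 (adjusted p 0.000445) on adding tRA. Dhrs3, a retinaldehyde reductase, and Sprr1a, a cornified envelope gene, differed by -3.10 (SE 0.51, adjusted p 0.118) and -2.78 (SE 0.40, adjusted p 0.0623) with AGN193109, with adjusted p of 0.011 and 0.00114 with the block.

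Of the terms tested, replicate number was the one for which members passed the test. The test asked whether the 3 arrays that share a number (1 of each group) differed from those of the other numbers, as a moderated F-test in a model of group and number. In the DEAB experiment 7 of 33 members passed an adjusted p of 0.05, 3 of the sterol branch and 4 of the fatty acid branch, against 7.14% of all clusters. In the AGN193109 experiment 1 of 33 did, Lss, against 3.32%, which is no more than the background. At an unadjusted p under 0.05 there were 20 of 33 and 15 of 33, where 5261 and 4848 of the 23410 clusters passed.

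In the DEAB experiment replicate 1 was the highest number in 16 of 20 sterol members and 9 of 13 fatty acid members, where it was the highest in 39% of all clusters. Mvd had means of 10.73, 10.53 and 10.33 in numbers 1, 2 and 3 (adjusted p 0.0088). Its 9 arrays were ordered by number in every group, 10.68, 10.49 and 10.31 in vehicle, 10.79, 10.58 and 10.29 with DEAB, and 10.72, 10.51 and 10.39 with tRA added. Lpin1 had 10.34, 10.05 and 9.93 (adjusted p 0.0162), Fasn 13.11, 12.84 and 12.82 (adjusted p 0.024) and Acaca 11.56, 11.32 and 11.29 (adjusted p 0.037). The remaining calls were Lss (12.33, 12.01 and 11.96, adjusted p 0.038), Msmo1 (12.40, 12.13 and 12.09, adjusted p 0.0402) and Scd1 (12.91, 12.65 and 12.86, adjusted p 0.0496). In 6 of the 7 genes the number with the lowest mean was 3, and in Scd1 it was 2. Srebf1 went the other way, with 10.94, 11.09 and 11.14, and did not pass (adjusted p 0.176).

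In the AGN193109 experiment replicate 1 was the highest in 16 of 20 sterol members and 10 of 13 fatty acid members (27% of all clusters), and replicate 2 was the lowest in 19 and 11 (34.5% of all clusters). Lss had means of 11.96, 11.55 and 11.65 (adjusted p 0.028). Stard4 had the widest spread between numbers, 10.27, 9.64 and 10.02, without passing (adjusted p 0.125), and Hmgcs1 had 11.84, 11.31 and 11.64 (adjusted p 0.113). The range of a gene's 3 number means had a median of 0.23 in the sterol branch and 0.16 over all clusters, and in the DEAB experiment of 0.19 and 0.11. A number in one experiment is a different culture from the same number in the other. What differed between the cultures of different numbers is not stated in the sources used here and was not tested.

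**Figure D3:**
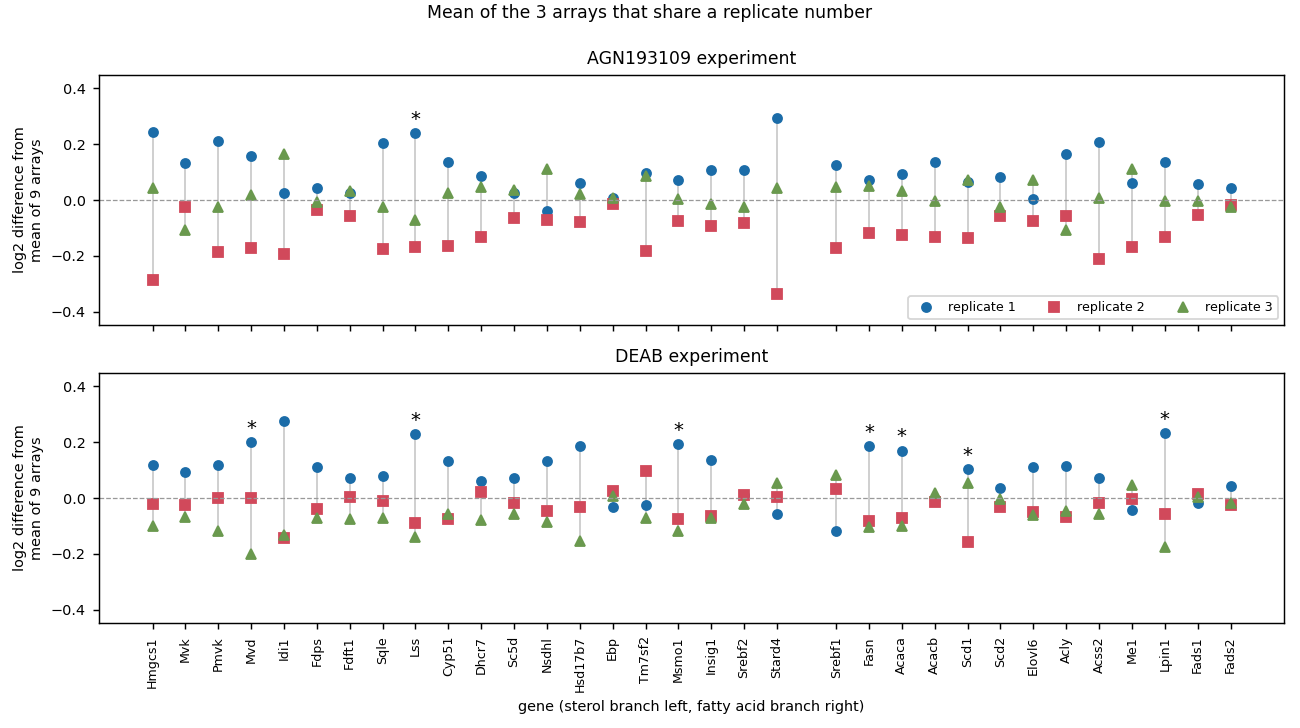
Mean of the 3 arrays that share a replicate number, as the log2 difference from the gene's mean over the 9 arrays of the experiment (y axis), for the 33 members (x axis). Stars mark an adjusted p under 0.05 for replicate number: Lss in the AGN193109 experiment, and Mvd, Lss, Msmo1, Fasn, Acaca, Scd1 and Lpin1 in the DEAB experiment.

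The calls for replicate number depended on single arrays. Lss in the AGN193109 experiment stayed called on leaving out AGN193109 replicate 3 and lost its call on leaving out any other array (adjusted p 0.0744 to 0.135). In the DEAB experiment no member was called without DEAB replicate 1, and Mvd kept its call on leaving out any other array. The numbers of calls over these repeats ran from 0 to 5 for sterol members and from 0 to 3 for fatty acid members.

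As a description of how the members varied together, group means were subtracted and each gene was correlated over the 9 arrays of an experiment with the median of the other sterol members. The arrays share cultures by number, so they are fewer than 9 independent points. In the DEAB experiment the sterol members had a median Pearson r of 0.90, with 17 of them between 0.55 and 1.00 and 3 at or below 0.03 (Ebp -0.14, Tm7sf2 0.03 and Stard4 -0.58). The fatty acid members had a median of 0.68 with the sterol median profile, led by Lpin1 (0.93) and Elovl6 (0.91), and Srebf1 (-0.81) and Me1 (-0.71) ran against it. In the AGN193109 experiment the sterol members had a median of 0.79, from -0.03 (Nsdhl) and 0.25 (Mvk) to 0.96 (Hmgcs1). The fatty acid members had a median of 0.80, from 0.60 (Elovl6) to 0.97 (Fads1), and Srebf1 had 0.85 there. All other clusters had a median of -0.03 in the AGN193109 experiment, from -0.98 to 0.99, and of 0.05 in the DEAB experiment, from -0.97 to 0.99. In the AGN193109 experiment 6.28% of them were at or above the sterol median and 5.73% at or above the fatty acid median. In the DEAB experiment these shares were 0.719% and 9.39%. Srebf1 thus had correlations of opposite sign in the experiments.

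**Figure D4:**
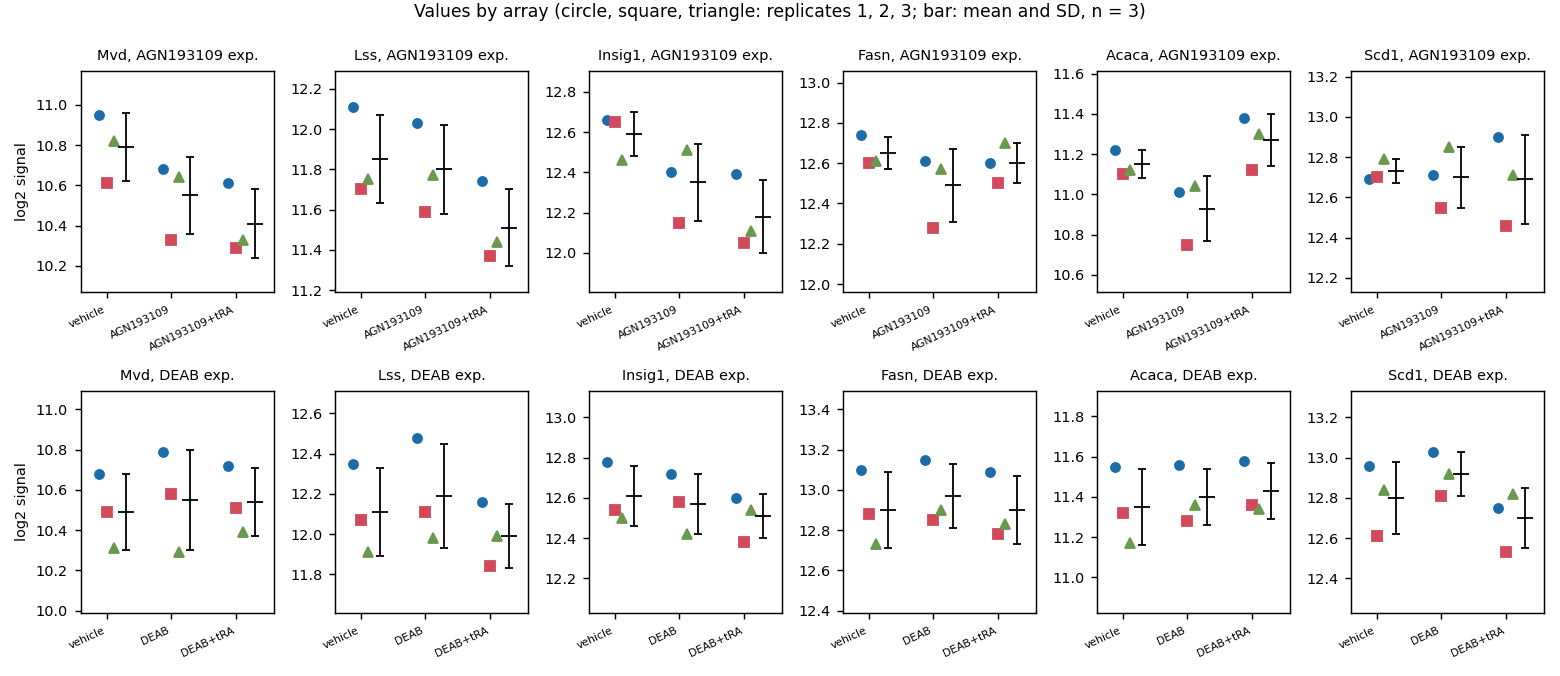
Log2 signal of 6 members on each array by group (x axis), with circles, squares and triangles for replicates 1, 2 and 3 and bars for the mean and SD of 3 arrays. The y axes span the same 1.1 log2 units but start at different values, and replicate 1 is the highest array in each group of the DEAB experiment for Mvd, Lss, Insig1, Fasn and Acaca.

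Neighbouring pathways were counted from lists of 88 genes, of which 76 were measured and 12 were not analysed here. They were 10 other sterol synthesis and uptake genes, 9 of SREBP processing, 7 of sterol efflux and LXR targets, 22 other fatty acid synthesis genes, 15 of glycerolipid synthesis and 13 of fatty acid oxidation. Without the block, 2 genes were called in 1 comparison each, both on adding tRA to DEAB, where 0.325% of all clusters were called. Chka, choline kinase, the entry to phosphatidylcholine synthesis, read 11.01, 11.00 and 11.00 in vehicle. It read 10.62, 10.73 and 10.76 with DEAB and 11.13, 11.17 and 11.17 with tRA added. The groups lay apart, and on adding tRA Chka rose by 0.45 (SE 0.05, adjusted p 0.00619). Against vehicle it differed by -0.30 (SE 0.05, adjusted p 0.143 in limma) with DEAB and by 0.15 (SE 0.05) with DEAB and tRA. Pdk4, the kinase that turns off pyruvate dehydrogenase in favour of fatty acid use, read 8.37, 8.49 and 8.38 in vehicle. It read 8.81, 8.62 and 8.75 with DEAB and 7.97, 8.10 and 8.17 with tRA added, and on adding tRA fell by 0.65 (SE 0.07, adjusted p 0.00918). Against vehicle it differed by 0.31 (SE 0.07, adjusted p 0.586 in limma) with DEAB and by -0.34 (SE 0.07, adjusted p 0.737) with DEAB and tRA. With the block, Chka was also called with AGN193109 against vehicle (-0.47, adjusted p 0.0438, and 0.519 without the block), where 0.457% of all clusters were. Cpt1a, the carnitine transferase that admits fatty acids to mitochondria, was called with the block on adding tRA to DEAB (-0.35, adjusted p 0.0115, and 0.883 without the block), against 1.5% of all clusters.

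The remaining lists had no call in any of the 6 comparisons with or without the block. Median differences over the 6 comparisons ran from -0.06 to 0.02 for the other sterol genes, -0.02 to 0.05 for SREBP processing, -0.01 to 0.11 for efflux and LXR targets, -0.02 to 0.02 for the other fatty acid genes, -0.07 to -0.01 for glycerolipid synthesis and -0.07 to 0.02 for oxidation. Of genes close to the members, Mid1ip1, an activator of acetyl-CoA carboxylase, differed by 0.28 (SE 0.06, adjusted p 0.2) on adding tRA to DEAB and by 0.44 (SE 0.16, adjusted p 1) on adding tRA to AGN193109. Thrsp, a lipogenic factor related to Mid1ip1, differed by 0.35 (SE 0.09, adjusted p 0.819) with DEAB and tRA against vehicle. Mylip, an LXR target that degrades lipoprotein receptors, differed by -0.38 (SE 0.17, adjusted p 0.801) on adding tRA to DEAB, and Lpcat3, an LXR target that remodels phospholipids, by 0.25 (SE 0.12, adjusted p 1) on adding tRA to AGN193109. Pcyt2, of phosphatidylethanolamine synthesis, differed by -0.35 (SE 0.10, adjusted p 1) with AGN193109 and tRA against vehicle. Insig2, another SREBP anchor, and Scarb1, a lipoprotein receptor, had differences of -0.09 to 0.15 and -0.17 to 0.08 over the 6 comparisons.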

How the data were processed

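The authors normalized the arrays of RNA from mIMCD-3 cells with the Robust Multichip Average in Affymetrix Expression Console (version not given in the sources used here) and deposited log2 values for 35556 transcript clusters. These were used unchanged. Array correlations within an experiment were at least 0.985 and 0.993. Arrays were grouped by title, and vehicle arrays by the form of their short names; some labels spell AGN193109 as AGN193110 or AGN193099. Each comparison was a fit of the 9 arrays of its experiment in limma 3.58.1 (R 4.3.3) over the 23410 clusters with a symbol, checked on simulated data first. Names come from the platform annotation, and all 33 members matched RefSeq by gene ID. Idi1, Fdft1, Acaca and Me1 had 2 clusters of 1 symbol, and the brighter was used. A cluster with several symbols that include Srebf2 was not used. A permutation of 6 arrays cannot go below p = 0.1, so p-values here rest on limma's model, and the number of arrays limits the precision. Numbers were taken to pair cultures, since residuals of same-numbered arrays correlated in all 9 pairs of each experiment (0.198 to 0.645 and 0.179 to 0.614). Differently numbered arrays had -0.575 to 0.205 and -0.511 to 0.312, so the ranges overlapped. Titles number the biological replicates of each group 1 to 3, and the paper states 3 independent experiments. Neither spells out that a number marks the same experiment in each group, so the pairing was also judged from these same data. Without the block, SE and intervals include the spread between numbers. For Lss with AGN193109 and tRA against vehicle the SE was 0.15, and 0.06 with the block. Other pathway genes were named if called, with or without the block, or among the 3 smallest unadjusted p of their list. The members and lists were chosen with earlier results of these data known. Alternatives were the block, renewed quantile normalization, subtraction of array medians, leaving out clusters under the 30th percentile, all clusters, the 6 arrays compared, all 18 arrays, trend and robust options, other clusters of a gene, and each array left out. Figures used matplotlib 3.10.9 (Python 3.11.15).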

Additional observations from a re-analysis of the deposited data

How the results depend on the processing

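No member was called in any comparison of groups under any alternative: over 231 tests of a member, the 4186 values from the alternatives had a smallest adjusted p of 0.135. Since none was called, no called direction turned, but 172 values had the other sign, 154 of them on leaving out an array, all where the difference was at most 0.16 in size. With replicate number as a block, the paired analysis, 0 sterol and 0 fatty acid members were called in all 6 comparisons and in the difference between the inhibitors. Branch medians under settings other than a left-out array moved by less than the spread between replicate numbers. Leaving out 1 array gave sterol medians of -0.32 to -0.15 for AGN193109 with tRA against vehicle and of -0.03 (without DEAB replicate 1 or vehicle replicate 3) to 0.08 (without vehicle replicate 1) for DEAB against vehicle. They were -0.15 (without vehicle replicate 2) to 0 (without AGN193109 replicate 2) for AGN193109 against vehicle, -0.23 (without AGN193109 replicate 2) to -0.09 (without AGN193109 replicate 3 or replicate 2 of AGN193109 with tRA) for tRA added to AGN193109, -0.14 (without DEAB replicate 3) to -0.04 (without DEAB replicate 1) for tRA added to DEAB, -0.14 (without vehicle replicate 3) to -0.01 (without vehicle replicate 1) for DEAB with tRA against vehicle, and -0.21 (without vehicle replicate 1 of the DEAB experiment) to -0.03 (without AGN193109 replicate 2) for the difference between the inhibitors. The fatty acid medians were -0.10 (without AGN193109 replicate 3) to 0.03 (without AGN193109 replicate 2) for AGN193109 against vehicle, -0.06 to 0.05 for tRA added to AGN193109, -0.05 to 0.01 for DEAB with tRA against vehicle, -0.05 to 0.04 (without replicate 2 of AGN193109 with tRA) for AGN193109 with tRA against vehicle and 0 (without DEAB replicate 1) to 0.12 (without vehicle replicate 1) for DEAB against vehicle. They were -0.12 (without replicate 1 of DEAB with tRA) to -0.03 (without DEAB replicate 1) for tRA added to DEAB, and -0.18 to -0.04 (without AGN193109 replicate 2) for the difference between the inhibitors. Calls for replicate number did change. In the AGN193109 experiment the 1 sterol call became 3 with renewed quantile normalization, with array medians subtracted and without dim clusters (Pmvk and Sqle beside Lss), 2 with trend and robust variance, 0 over all clusters, and 0 to 3 on leaving out an array. In the DEAB experiment the 3 sterol calls became 7 without dim clusters, 9 with trend and robust variance, 1 over all clusters and 0 to 5 on leaving out an array, and the 4 fatty acid calls became 7 with trend and robust variance, 0 over all clusters and 0 to 3 on leaving out an array. There Scd1 also lost its call in the F-test with renewed quantile normalization (adjusted p 0.0582). Elovl6 gained a call without dim clusters (adjusted p 0.0423). The cause was not tested. With 3 arrays a group and the adjustment over all clusters, a member without a call was not shown to be unchanged. The intervals given are for single genes, without adjustment, and are not limits of detection. That of Insig1 for AGN193109 with tRA against vehicle, -0.68 to -0.13, left out 0. Insig1 was picked for its large difference, and in the same comparison the intervals of Mvk, Pmvk, Mvd, Dhcr7, Nsdhl and Hsd17b7 also left out 0. None of these genes was called.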
